A study of Torulaspora delbrueckii with 17 samples.

Results

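Orc1 is a subunit of the origin recognition complex, the protein complex that sits on replication origins in budding yeasts, and it was mapped by chromatin immunoprecipitation and sequencing (ChIP-seq) in the yeast Torulaspora delbrueckii. The regions described here are the variable interior Orc1 sites: places far from chromosome ends where some of the Orc1 peak lists hold a peak and others do not. They were chosen by the presence of peaks in 9 Orc1 lists, on chromosomes 1 to 7, with peak midpoints at least 100 kb from both ends. Overlapping peaks of the 9 lists were merged to sites, and a 10-kb stretch on chromosome 3 around the SLA2 neighbourhood was left out. Of 269 interior sites, 122 (45.4%) had peaks from 1 to 8 lists and are called variable; the other 147 had a peak in all 9 lists and are called constant. The 122 sites rest on 233 of the 1610 interior Orc1 peaks, and all Orc1 lists together held 3959 peaks.

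In Saccharomyces cerevisiae the origin recognition complex stays on origins through most of the cell cycle, and the BAH domain of Orc1 binds nucleosomes. Sir2 is a histone deacetylase of silent chromatin. Kos3 belongs to the Sir1 family, whose S. cerevisiae member helps to recruit silencing proteins to silencers. The comparisons ask which Orc1 sites are kept without Sir2, without Kos3 or with an altered BAH domain.

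Chromatin of strains carrying Orc1-MYC was precipitated with an antibody to MYC, from cells grown in YPD and cross-linked with formaldehyde. Both sir2 libraries came from strain LRY3206 and the single kos3 library from LRY3205. Both libraries of the BAH-domain allele orc1bah came from LRY3212, and those of orc1P179A, a second allele of that domain, came from LRY3215 and LRY3216. The orc1bah and orc1P179A strains also carry Kos3-V5. The 2 libraries with no mutation in their labels, called wild type, came from LRY3204, with no V5 tag in its label, and from LRY3211, which carries Kos3-V5. The series names the libraries of a pair technical replicates, so the spread within a strain is technical, and the peak lists hold nothing that checks the deletions themselves. Kos3-V5 was precipitated from LRY3212, LRY3215, LRY3216 and LRY3211 in 6 further libraries. With the 2 inputs from the untagged JRY10156 this makes 17 samples.

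Each list holds the peaks the authors called in 1 library against an input. Per the file names the first input served the sir2 and kos3 lists and wild type 1, and the second served the orc1bah and orc1P179A lists and wild type 2. Per the labels, every Orc1 strain called against the second input also carries Kos3-V5 and no strain of the first does, so input and tag cannot be told apart. The sir2 lists held 651 and 671 peaks, the kos3 list 299, the orc1bah lists 259 and 272, the orc1P179A lists 530 and 669, and the wild-type lists 300 and 308. The interior held 183 and 191 of these peaks in the sir2 lists, 200 in kos3, 177 and 184 in the orc1bah lists, 160 and 167 in the orc1P179A lists, and 182 and 166 in the wild-type lists. Read depth is unknown, and a site without a peak had no peak with a q-value under the highest one deposited, 0.0493; it is not shown to be free of Orc1. Fold enrichment and −log10 q are the authors' values for each peak.

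Most variable sites were held by few lists. There were 84 sites in 1 list, 15 in 2, 6 in 3, 7 in 4, 3 in 5, 0 in 6, 5 in 7 and 2 in 8. Their strongest peaks were low: the median of the highest fold of a site was 2.04 for sites in 1 list, 2.88 for those in 4 and 3.40 for those in 8, against 11.3 for constant sites. A highest fold is taken over more lists at sites that more lists hold, so it tends to rise with their number. For the mean fold over the lists that hold a site, the same medians were 2.04, 2.48 and 2.60, against 8.69. Only 3 variable sites had a fold above 4 in any list. A median variable site spanned 255 bp, against 1313 bp for a constant one, where a site spans the merged peaks of all its lists. Within single lists, median peak widths were 250 to 342 bp at variable sites and 873 to 1048 bp at constant ones. A peak with a −log10 q of at least 10 was present at 22 of the 122 variable sites, against 147 of 147 constant ones. Presence, fold and q are what the selection used or share with it, so these values describe the sites and were not tested.

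**Figure D1:**
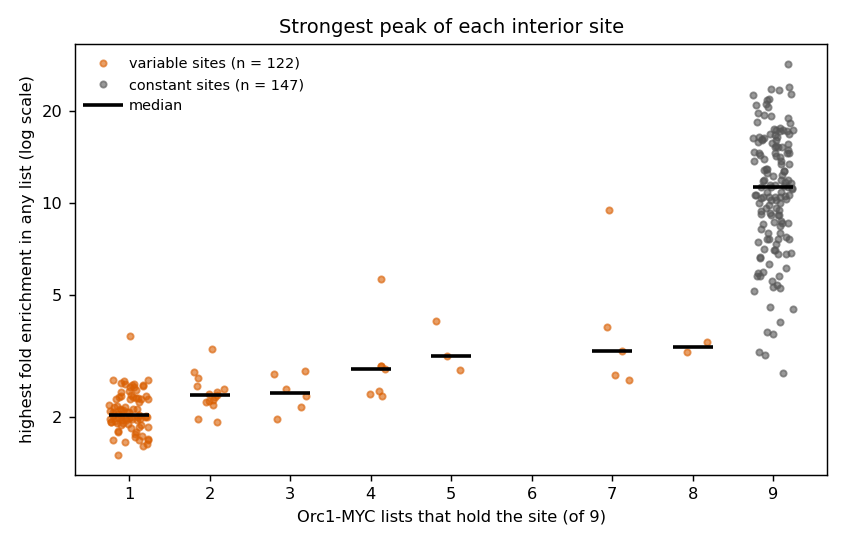
Highest fold enrichment of each interior site in any list (vertical axis, log scale) against the number of Orc1 lists, of 9, that hold the site. Points are sites, 122 variable ones in orange and 147 constant ones in grey, and bars are medians, which lie between 2.04 and 3.40 for variable sites and at 11.3 for constant ones.

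The boundary of the selection falls within a continuous range of folds. The 2 sites just inside it, each in 8 lists, had mean folds of 2.53 (between FIP1 and IME1) and 2.68 (in TDEL0D03810). A mean fold covers only the lists that hold a peak, so these leave out the list without one. Just outside it, the 3 weakest sites in all 9 lists had mean folds of 2.12 (between TDEL0F02920 and RTS3), 2.32 (between NCW2 and NMT1) and 2.69 (in TDEL0C02900).

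The number of variable sites differed between lists by up to 4 times. The sir2 lists held 27 and 36, the kos3 list 44, the orc1bah lists 18 and 29, the orc1P179A lists 11 and 14, and the wild-type lists 31 and 16. The orc1P179A lists held the fewest, 12.5 ± 2.12, against 23.5 ± 10.6 in wild type (mean ± SD, n = 2 libraries each). The sir2 mean was 31.5 ± 6.36 and the orc1bah mean 23.5 ± 7.78. These SDs measure unlike spreads: between libraries of 1 strain for sir2 and orc1bah, and between 2 strains for orc1P179A. The 2 wild-type strains also differ in input and tag. The orc1P179A lists lay below both wild-type lists and the kos3 list above both, while the sir2 and orc1bah lists overlapped the wild-type range. No p-value is given for these counts, because the smallest that an exact permutation test of 2 lists against 2 allows is 0.333. Within the second input, orc1P179A held 11 and 14 sites, against 16 in wild type 2. Within the first, sir2 held 27 and 36, against 31 in wild type 1.

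Sites held by 1 list alone made up much of this difference. The sir2 lists held 11 and 20 of them, the kos3 list 25, the orc1bah lists 2 and 11, the orc1P179A lists 2 and 2, and the wild-type lists 9 and 2. In all, 65 of the 84 came from the 4 lists of the first input and 19 from the 5 lists of the second. Sharing between lists is counted here without the 147 constant sites, which all lists hold by definition, so it does not measure how well whole lists agree. The sir2 lists shared 12, which is 44.4% of the first and 33.3% of the second, and the orc1bah lists shared 12 (66.7% and 41.4%). The 2 strains of orc1P179A shared 6 (54.5% and 42.9%) and the 2 of wild type 12 (38.7% and 75.0%). The kos3 list and wild type 1 shared 15, which is 34.1% of the first and 48.4% of the second.

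**Figure D2:**
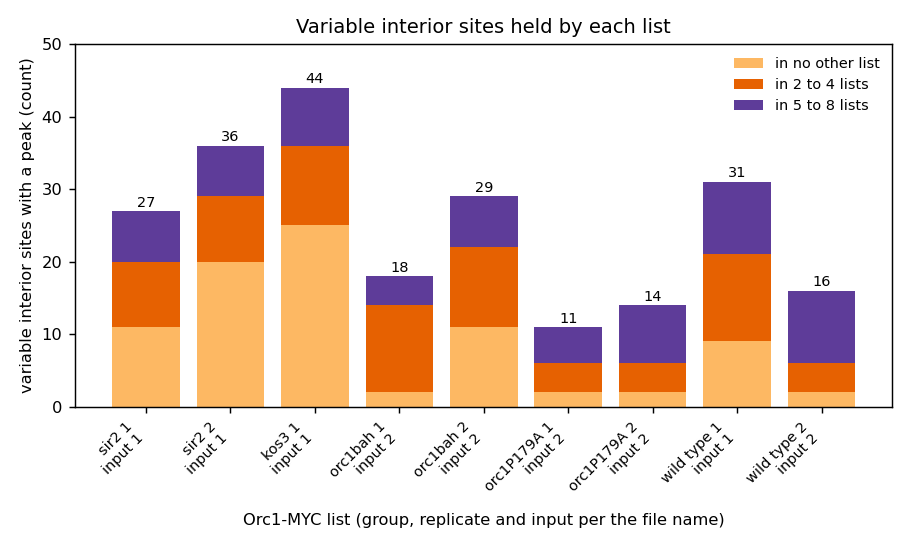
Variable interior sites with a peak (count) in each Orc1 list, named by group, replicate and input. Bars are split by how many lists hold the site: 1 list, 2 to 4 lists, or 5 to 8 lists. The kos3 list has 44 and the orc1P179A lists 11 and 14, against 31 and 16 in wild type.

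Peak calls were set against wild type by counting the sites that every library of a group lacked or held. The sir2 lists lacked 4 sites that both wild-type lists held, 1.49% of the 269 interior sites, and both held 2 that neither wild-type list held (0.743%). The kos3 list lacked 4 (1.49%) and held 29 absent from both wild-type lists (10.8%); with 1 library, nothing shows how many of the 29 would recur. The orc1bah lists lacked 5 (1.86%) and gained 4 (1.49%). The orc1P179A lists lacked 4 (1.49%) and gained 1 (0.372%). The selection used these same lists, so the percentages are given as the background and nothing is read from them. Within 1 input, absences were counted against 1 wild-type list rather than both, so by definition they cannot be fewer. The sir2 lists lacked 20 and the kos3 list 16 of the 31 variable sites of wild type 1. The orc1bah lists lacked 7 and the orc1P179A lists 6 of the 16 of wild type 2. Gains within 1 input, counted against the same 1 list, were 2 for the sir2 lists, 29 for kos3, 7 for orc1bah and 1 for orc1P179A.

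The 10 sites held by 5 to 8 lists all had a peak in both wild-type lists. Of these 10, the sir2 lists lacked 3 and 3, the kos3 list 2, the orc1bah lists 6 and 3 and the orc1P179A lists 5 and 2. They fall into sites without peaks in the orc1 mutants, in sir2 or in kos3, and these are taken in turn. Gene roles below are those known in S. cerevisiae.

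**Figure D3:**
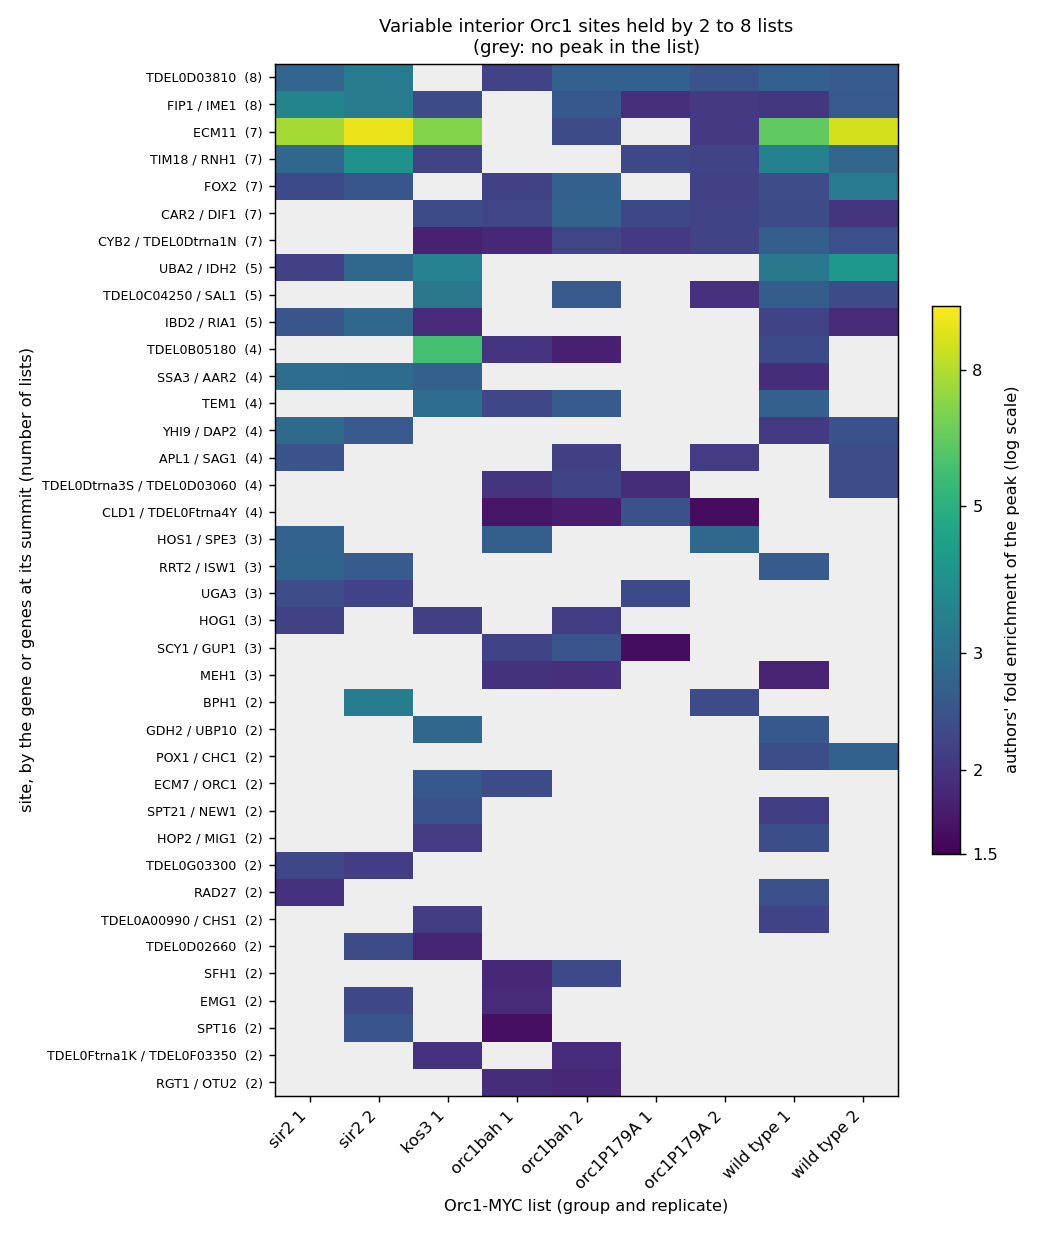
Fold enrichment of the peak (colour, log scale) at the 38 variable sites held by 2 to 8 lists (rows, named by the gene at the summit or the genes on both sides, with the number of lists) in each Orc1 list (columns). Grey cells have no peak. The 10 upper rows, in 5 to 8 lists, are filled in both wild-type columns, and ECM11 has the highest folds, up to 9.45.

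The strongest variable site lay in ECM11 (TDEL_0A04260, chromosome 1, 758229 to 758971), a gene for a meiotic protein of the synaptonemal complex. Its summit was 11 bp inside the gene. Its peak had folds of 7.74 and 9.45 in sir2, 7.04 in kos3, none and 2.32 in orc1bah, none and 2.05 in orc1P179A, and 6.29 and 8.80 in wild type. All 4 orc1 lists lay below all 5 others. In the lists of the second input alone, orc1bah 2 and orc1P179A 2 had 2.32 and 2.05, against 8.80 in wild type 2. Ranked within its own list against the 147 constant sites, this peak was above 65 and 87 of them in the sir2 lists, 51 in the kos3 list, 2 in orc1bah 2, 2 in orc1P179A 2, and 49 and 65 in the wild-type lists. In sir2 2 it exceeded the list's median constant fold of 8.87, the only peak of a variable site to do so in any list.

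Between UBA2, a subunit of the SUMO-activating enzyme, and IDH2, a subunit of mitochondrial isocitrate dehydrogenase (chromosome 1, 598790 to 599502), none of the 4 orc1 lists held a peak. Folds there were 2.18 and 2.82 in sir2, 3.49 in kos3, and 3.22 and 4.14 in wild type. The Kos3 lists, which the selection did not use, held a peak at this place with folds of 2.05 and 2.78 in wild type. No Kos3 list of orc1bah or orc1P179A held one.

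A second site with this pattern lay between IBD2, a spindle checkpoint component, and RIA1, a GTPase of ribosome assembly (chromosome 6, 137946 to 138500). Its folds were 2.49 and 2.85 in sir2, 1.89 in kos3, none in the 4 orc1 lists, and 2.22 and 1.88 in wild type. The 5 lists with a peak lay between 1.88 and 2.85, and no Kos3 list held one there. Ranked as the ECM11 peak was, it was above 4 and 2 of the 147 constant sites in sir2, 0 in kos3, and 2 and 0 in wild type. The peak between UBA2 and IDH2 was above 2 and 2 in sir2, 10 in kos3, and 4 and 9 in wild type.

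Among these 10 sites, 1 had peaks in both libraries of 1 orc1 allele and in neither of the other. Between TIM18, a mitochondrial import protein, and RNH1, a ribonuclease H (chromosome 2, 610962 to 611829), both orc1bah lists lacked a peak while both orc1P179A lists had one, with folds of 2.24 and 2.20. The sir2 folds were 2.80 and 3.93, the kos3 fold 2.21 and the wild-type folds 3.44 and 2.80. The site between FIP1, a polyadenylation factor, and IME1, the inducer of meiosis (chromosome 3, 586993 to 587662), was absent from orc1bah 1 alone, with 2.52 in orc1bah 2 and 1.94 and 2.05 in orc1P179A. It had 3.53 and 3.27 in sir2, 2.32 in kos3, and 2.04 and 2.54 in wild type.

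**Figure D4:**
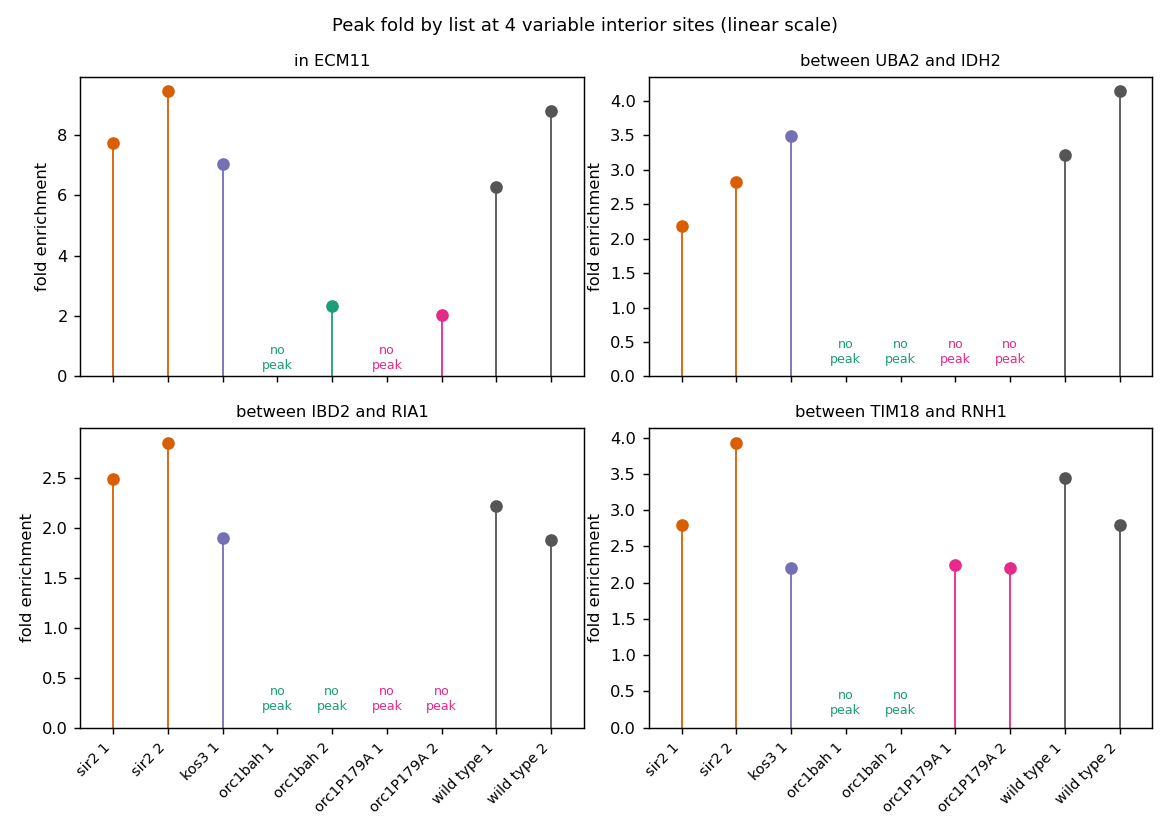
Fold enrichment of the peak in each Orc1 list (linear scale from 0) at 4 variable sites: in ECM11, between UBA2 and IDH2, between IBD2 and RIA1, and between TIM18 and RNH1. Each point is 1 library, and "no peak" marks a list without one. The orc1bah lists have no peak in 3 panels and 1 peak, of fold 2.32, in the ECM11 panel.

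The sir2 lists lacked peaks at a pair of sites on chromosome 4 that all 7 other lists held. The first lay between CAR2, ornithine aminotransferase, and DIF1, a regulator of ribonucleotide reductase (186464 to 186885). Its folds were 2.32 in kos3, 2.23 and 2.75 in orc1bah, 2.26 and 2.19 in orc1P179A, and 2.31 and 2.00 in wild type. All 6 Kos3 lists held a peak there too, with folds of 2.13 and 2.32 in orc1bah, 2.28 and 1.94 in orc1P179A, and 2.79 and 2.77 in wild type. Kos3 was not precipitated in a sir2 strain. The second lay 238 bp from a tRNA gene for asparagine and 592 bp from CYB2, a lactate dehydrogenase (217035 to 217458). Its folds were 1.78 in kos3, 1.86 and 2.23 in orc1bah, 2.05 and 2.22 in orc1P179A, and 2.65 and 2.39 in wild type. Within the lists that held them, peaks of the first site were above 0 to 6 of the 147 constant sites and those of the second above 0 to 4.

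A further site absent from sir2, next to TDEL0C04250 and SAL1 (chromosome 3, 761268 to 761873), was also absent from orc1bah 1 and orc1P179A 1. Its folds were 3.18 in kos3, 2.54 in orc1bah 2, 1.96 in orc1P179A 2, and 2.63 and 2.31 in wild type.

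The kos3 list lacked 2 sites that most other lists held. In TDEL0D03810 (chromosome 4, 698379 to 698927) it was the only list without a peak, and the 8 others had folds from 2.22 in orc1bah 1 to 3.26 in sir2 2, with 2.67 and 2.58 in wild type. In FOX2, a gene of fatty acid oxidation (chromosome 1, 529266 to 530018), kos3 and orc1P179A 1 had no peak. The folds there were 2.29 and 2.50 in sir2, 2.19 and 2.68 in orc1bah, 2.18 in orc1P179A 2, and 2.34 and 3.28 in wild type.

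Sites held by fewer lists split the groups in other ways. Between POX1, acyl-CoA oxidase, and CHC1, clathrin heavy chain (chromosome 4, 1053750 to 1054088), no mutant list held a peak, and both wild-type lists did, with folds of 2.37 and 2.69. Between YHI9 and DAP2, an aminopeptidase gene (chromosome 5, 660309 to 660708), folds were 2.88 and 2.54 in sir2 and 2.07 and 2.42 in wild type, with no peak in the kos3 or orc1 lists. Between SSA3, a heat shock chaperone, and AAR2, a splicing factor (chromosome 3, 262343 to 262652), they were 2.95 and 2.93 in sir2, 2.68 in kos3, and 1.93 in wild type 1, with none in wild type 2. That is the single site held by all 4 lists of the first input and by none of the second. No site showed the opposite pattern.

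After ECM11, the variable site with the highest fold in any list lay in TDEL0B05180 (chromosome 2, 911692 to 912181), 350 bp from the malate synthase gene MLS1. The kos3 list had a fold of 5.67 there. The orc1bah folds there were 2.00 and 1.77, wild type 1 had 2.30, and the sir2, orc1P179A and wild type 2 lists had no peak. The kos3 group is 1 library, so the height of this peak has no replicate. Of the 29 sites held by kos3 and neither wild-type list, the 5 with the highest folds lay between HSP78 and SWM1 (2.66), between FPY1 and CHP1 (2.64), between MUP3 and CBP2 (2.57), in RPS2, a ribosomal protein gene (2.54), and between ECM7 and ORC1 (2.52). The first 4 were in no other list, and 25 of the 29 were not either.

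Sites gained in both libraries of another mutant were few and weak. In sir2 they lay in UGA3, the activator of GABA use (2.35 and 2.19), also held by orc1P179A 1 at 2.29, and in TDEL0G03300 (2.25 and 2.11). In orc1bah they lay between RGT1 and OTU2 (1.93 and 1.87), in SFH1, of the RSC chromatin remodeller (1.87 and 2.28), between SCY1 and GUP1 (2.20 and 2.47, also 1.60 in orc1P179A 1), and near a tyrosine tRNA gene (1.67 and 1.73). The last site (chromosome 6, 627515 to 627919) was also the one gained in orc1P179A, with folds of 2.39 and 1.60. Its 4 lists are the 4 orc1 lists, all of the second input, and wild type 2 lacked it. Single lists held stronger peaks: sir2 2 had a fold of 3.67 next to TNA1, a nicotinic acid transporter gene (chromosome 7, 154098 to 154365), where sir2 1 had none. In BPH1 (chromosome 6, 551912 to 552517) sir2 2 had 3.34 and orc1P179A 2 had 2.31.

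Of the 269 interior sites, 20 were held by both libraries of 1 group and by neither library of another, among groups of 2 libraries. Of the 20, 10 had a −log10 q of at least 10 in some list. The pairs of groups include sir2 against orc1bah and against orc1P179A. Those groups also differ in input and in the Kos3-V5 tag, so group cannot be told apart from either there. A group of 2 that loses a library has no pair and no longer counts. Leaving out either sir2 or either orc1bah library brings the 20 to 12, and leaving out either wild-type library brings it to 18. Without either orc1P179A library the number stays at 20.

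A stretch over the ORC1 gene itself held 3 variable sites. It runs from ECM7, a calcium-uptake gene, across ORC1 (TDEL_0D00910, chromosome 4, 164983 to 167841) to TEM1, a GTPase of mitotic exit. ORC1 is the gene that carries the MYC tag in these strains. Peaks there covered 3387 bp in kos3 (3 peaks, folds 2.24 to 2.95), 1743 bp in orc1bah 1 (5 peaks, 1.94 to 2.31) and 726 bp in orc1bah 2 (1 peak, 2.59). Wild type 1 had 1222 bp (3 peaks, 1.98 to 2.68), and sir2, orc1P179A and wild type 2 had none. The Kos3 lists of orc1bah had peaks over parts of the same stretch. They covered 1939 bp in 4 peaks (folds 2.20 to 2.56) and 972 bp in 3 peaks (2.28 to 2.88). Those of orc1P179A and wild type had none. The peaks of different lists lay at different places along the gene and were joined to sites by overlap.

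**Figure D5:**
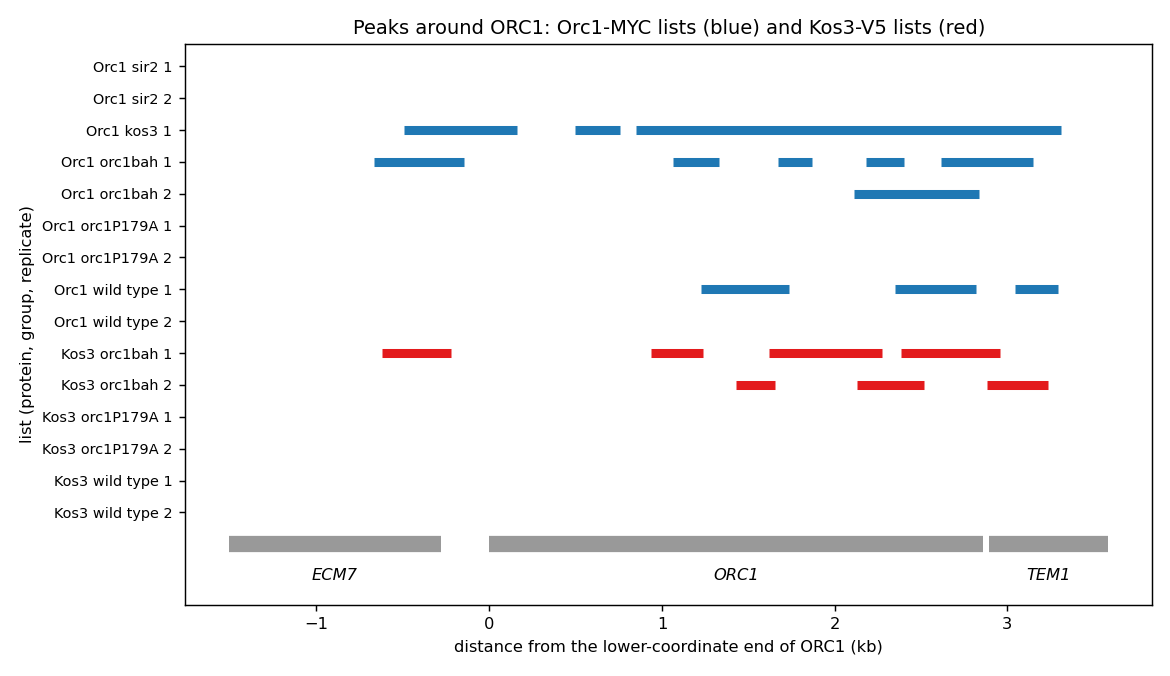
Peaks around ORC1 in the 9 Orc1 lists (blue) and 6 Kos3 lists (red), 1 row per list, by distance in kb from the lower-coordinate end of ORC1; grey bars are genes. The kos3, orc1bah and first wild-type Orc1 lists have peaks over at least part of the gene, as do both orc1bah Kos3 lists, and the other 9 lists have none.

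Kos3 peaks were rare at variable sites. A Kos3 peak overlapped 3 and 2 of the 122 sites in the orc1bah lists, 2 and 2 in orc1P179A, and 2 and 3 in wild type. The same counts over the 147 constant sites were 0 and 0 in orc1bah, 1 and 0 in orc1P179A, and 1 and 1 in wild type. Over any of the 6 Kos3 lists, 7 variable sites (5.74%) and 3 constant sites (2.04%) had one. The interior held only 8 and 14 Kos3 peaks in orc1bah, 6 and 6 in orc1P179A and 12 and 10 in wild type. With 4 strains an exact sign-flip test could not pass 0.05, so the difference was not tested. The sites with a peak in both wild-type Kos3 lists were 2, CAR2 to DIF1 and UBA2 to IDH2.

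Variable sites lay inside genes more often than constant sites did, though the difference did not pass the test. Their strongest summits were outside genes in 55 of 122 (45.1%; Wilson 95% interval 36.5 to 53.9), against 117 of 147 constant sites (79.6%; 72.4 to 85.3); 18.3% of all interior bases are outside genes. The share was 38.1% for sites in 1 list and 60.5% for those in 2 to 8 lists. Inside genes, the median summit lay 287 bp from the gene's edge at variable sites and 38.5 bp at constant ones.

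By list, the shares outside genes at variable and constant sites were 40.7 and 76.2% in sir2 1, 41.7 and 79.6% in sir2 2, and 59.1 and 74.8% in kos3. They were 50 and 82.3% in orc1bah 1 and 48.3 and 83.7% in orc1bah 2. In orc1P179A 1 they were 90.9 and 78.9% and in orc1P179A 2 71.4 and 81.0%, and in wild type 1 64.5 and 78.2% and in wild type 2 68.8 and 74.8%. Over the 7 strains the difference (variable minus constant) was −14.8 ± 16.7 percentage points (mean ± SD, n = 7), negative in 6 of 7 strains (exact two-sided sign-flip permutation test, p = 0.0625, Benjamini-Hochberg adjusted over 3 measures 0.0938). The largest differences were those of sir2 (−36.7) and orc1bah (−33.9), and orc1P179A strain LRY3215 had the single positive one (12.0, from 11 sites). Strains share the same genome positions and some sites, so they are not fully independent. With peaks joined by summits within 200 bp the difference was −25.5 points (same exact test, adjusted p = 0.0469). Without sites held by 1 list it was −5.92 points (same exact test, adjusted p = 0.516); this alternative was added once the values were known. At −log10 q thresholds of 5 and 10, with peaks up to 500 bp apart merged, and with equal numbers of peaks, the difference lay between −8.39 and −8.26 points.

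tRNA genes lay near fewer variable than constant sites, again without passing the test. A tRNA gene was within 1 kb of the summit at 12 variable sites (9.84%, interval 5.72 to 16.4), against 35 constant sites (23.8%, 17.6 to 31.3), and 4.44% of interior bases are that near one. The difference over strains was −10.3 ± 9.77 points (n = 7, negative in 5 of 7, exact sign-flip permutation p = 0.0625, adjusted 0.0938). It was −4.87 points with the same number of peaks from each list, −5.59 within 500 bp of a tRNA gene and −6.37 from 50 kb off the chromosome ends. The 12 sites were not spread evenly over the lists. The sir2 lists held 0 and 0 of them, the kos3 list 4, the orc1bah lists 4 and 8, the orc1P179A lists 3 and 2, and the wild-type lists 2 and 2. For 0 of 27 and 0 of 36 sites a count of 0 allows shares of up to 11.1 and 8.33%. The other first-input lists had 9.09% (kos3) and 6.45% (wild type 1). Second-input lists had 22.2 and 27.6% (orc1bah), 27.3 and 14.3% (orc1P179A) and 12.5% (wild type 2). Every second-input list lay above every first-input list, so group cannot be told apart from input and tag here. Each of the chromosome 6 sites among the 12, which lie between 618621 and 627919, had a peak in at least 1 orc1bah list. Only the one from 627515 to 627919 was in both orc1bah lists, and it was in both orc1P179A lists too. The one starting at 618621 was also in the kos3 list. Besides the asparagine tRNA site above, the 12 include a site 64 bp from a serine tRNA gene on chromosome 4 (574072 to 574638), with folds of 2.02 and 2.22 in orc1bah, 1.92 in orc1P179A 1 and 2.35 in wild type 2.

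Highly transcribed genes, a list of ribosomal protein, glycolysis, translation factor, histone and chaperone genes, showed no difference that passed the test. Such a gene lay within 500 bp of 5 variable summits (4.10%), against 4 constant ones (2.72%), and of 2.30% of interior bases. The 5 genes were PGK1, PDC1, SSA3, HYP2 and RPS2. The difference within strains was −0.331 ± 2.56 points (n = 7, exact sign-flip permutation test, adjusted p = 0.672), with 3 strains lower and 4 higher, and its sign turned under several settings.

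Variable sites lay nearer to constant sites than constant sites did to one another. The share of interior bases within 2 kb of a constant site was not computed, so no background share is given. Within 2 kb of a constant site lay 48 of the 122 (39.3%), whereas 8 of 147 constant sites (5.44%) were that near another constant site; the median distances were 3558 and 26170 bp. Of the 48, 38 were in 1 list, and 22.9% had their summit outside genes, against 59.5% of the other 74. None of the 22 variable sites with a −log10 q of at least 10 was among them (0 of 22, which allows a share of up to 13.6%). The share of a list's variable sites in this class was 40.7 and 44.4% for sir2 (11 and 16 sites), 15.9% for kos3 (7), 44.4 and 37.9% for orc1bah (8 and 11), 36.4 and 21.4% for orc1P179A (4 and 3), and 12.9 and 6.25% for wild type (4 and 1). Every mutant list had a higher share than both wild-type lists. The shares rest on few sites, and the closest were 15.9% in kos3 (7 sites) and 12.9% in wild type 1 (4 sites). Several of these lists share a strain, and the difference was not tested.

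The 37 constant sites with such a neighbour had a median mean fold of 9.89, against 8.20 for the other 110. Of the 37, 7 had several variable neighbours. The one with the highest mean fold of those with 3 lay between HOG1, an osmotic stress kinase, and YCF1, a vacuolar transporter (chromosome 6, 802063 to 803614, mean fold 17.2). Its variable neighbours lay in CCW12 (kos3, 1.84), HOG1 (sir2 1, kos3 and orc1bah 2, from 2.12 to 2.17) and YCF1 (1 sir2 list, 1.99).

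All 7 chromosomes held variable sites, from 6 on chromosome 5, beside 18 constant ones, to 24 on chromosome 2, beside 24. The density was lowest on chromosome 5, at 6.76 variable sites per Mb of interior, and highest on chromosome 7, at 22.9. Only TAO3 and TDEL0B01050 held 2 variable sites in 1 gene.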

How the data were processed

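The members and gene lists were chosen with earlier results of these data known. The authors deposited 1 peak list for each of 15 immunoprecipitation libraries, not pooled; the submitters' processing notes name Bowtie2 2.3.4.1 and MACS2 2.2.7.1, and their roles, options and genome build are not given in the sources used here. For each peak the deposited columns give a fold (a linear ratio over background), −log10 p-value and −log10 q-value and a score, which was read but not used. Peak names hold the word subsample. In 3 lists they carry another replicate number than the label, and they name another input number than the file names for the second input; groups and replicates follow the labels and inputs the file names. Peak lists hold no read counts, so depth is unknown, and the inputs had no list analysed here.

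Coordinates were written 1-based. Chromosomes are RefSeq records numbered in ascending order, and the 5174 genes, without strand, came from assembly ASM24337v1. Strong wild-type summits lay outside genes in 68.8 to 87.3% on their own chromosome, against at most 35.7% with another's genes. No genome sequence was used.

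Interior peaks overlapping by at least 1 bp were joined to sites; a site's fold in a list is that of its strongest peak, and its position the summit with the highest −log10 q. Differences in gene position were taken within each library, averaged by strain and tested by exact two-sided sign-flip permutation over 7 strains, adjusted by Benjamini-Hochberg over 3 measures. The joining of peaks and the test were checked on simulated data. Intervals are Wilson 95% intervals and, like limits from a count of 0 (3 counts), cover counting error only. Named sites were those absent from or gained in each mutant (up to 5 each, by mean fold), the 10 with the highest fold, those in 8 lists, those with peaks in both wild-type Kos3 lists, the weakest sites on each side of the boundary, and up to 10 held by whole groups. The tRNA sites, the ORC1 stretch, and the sites at SSA3 and HOG1 were picked after their values were seen. Alternatives were −log10 q thresholds of 5 and 10, other overlap rules, other distances, equal numbers of peaks per list, and each library left out. Python 3.11.15, pandas 2.3.3, numpy 2.4.6 and scipy 1.17.1 were used.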

Additional observations from a re-analysis of the deposited data

How the results depend on the processing

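Counts of variable sites depend on the peak threshold. The number of variable sites, 122, was 72 at a −log10 q of at least 5, 33 at 10, 51 with the same number of peaks from each list and, chosen after the data were seen, 53 in the 5 lists of the second input alone. Their share of interior sites, 45.4%, was 33.5%, 19.5% and 26.4% at the first 3 of these settings, 53.6% with summits within 200 bp and 37.8% with peaks up to 500 bp apart merged. Sites in 1 list, 84, were 41, 14 and 24 at thresholds 5 and 10 and with equal numbers. Sites that separate groups, 20, were 10 at threshold 10 and 12 with equal numbers. Sites with a peak in both wild-type Kos3 lists, 2, were 1 at each threshold.

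For summits outside genes, the difference was −8.31 points at threshold 10 and −25.5 with summits within 200 bp, both past the test (exact sign-flip permutation, adjusted p = 0.0469; 0.0469 to 0.516 over all alternatives), and negative in all 20; it was smaller without passing at −8.39 (threshold 5), −8.26 (peaks 500 bp apart merged) and −8.33 (equal numbers). For tRNA genes it passed at −10.2 (threshold 10), −13.8 (peaks 500 bp apart merged) and −12.7 (2 kb to a tRNA gene), each with adjusted p = 0.0469 (same exact test; 0.0469 to 0.305 over alternatives), and was smaller without passing at −4.87 (equal numbers), −5.59 (500 bp to a tRNA gene) and −6.37 (50 kb from chromosome ends; same exact test, adjusted p = 0.234, 0.211 and 0.305). For highly transcribed genes the sign turned to 0.336 (50% overlap), 0.211 (500 bp merged) and 0.896 (summit inside the gene). The cause of these shifts was not tested.

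With each library left out in turn, the number of variable sites was 98 to 123, their share 39.8 to 45.6%, sites in 1 list 67 to 89 and separating sites 12 to 20. The differences were −18.9 to −14.6 points outside genes, −11.7 to −8.69 for tRNA genes and −0.838 to 0.182 for highly transcribed genes, where leaving out kos3, orc1bah 1, either orc1P179A library or wild type 2 turned the sign. No paired analysis was possible because no test compares groups whose libraries share replicate numbers; the differences tested set variable against constant sites of the same library. Unknown depth limits every statement that a list lacks a site.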
